A study of Homo sapiens with 8 samples.

Results

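*LRRN2*, *ABAT* and *FFAR4* are 3 genes whose mRNA differed strongly between Panc-1 cells with and without transforming growth factor β (TGFβ), the first pair being higher and the last lower with the cytokine. They were followed here before and after depletion of PHF13, a PHD finger protein that reads methylated lysine 4 of histone H3. All 3 were found among the 13307 genes of the table of normalized counts. Panc-1 is a human cell line from a carcinoma of the pancreatic duct. Cells received non-targeting control siRNA (siControl) or siRNA against PHF13 (siPHF13) and, afterwards, either no cytokine or 10 ng/ml TGFβ for 48 h. This gives 4 groups of 2 libraries each, named siControl, siPHF13, siControl + TGFβ and siPHF13 + TGFβ. All libraries come from 1 cell line, and untransfected cells are not among them.

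LRRN2 is a membrane protein of the neuronal leucine-rich repeat family, with leucine-rich repeats and an immunoglobulin-like domain outside the cell, a build shared with many adhesion receptors of nerve cells. ABAT is the mitochondrial transaminase that breaks down γ-aminobutyric acid (GABA), and its product is oxidised to succinate by the next enzyme of the GABA shunt, ALDH5A1. FFAR4, also called GPR120, is a G-protein-coupled receptor for long-chain fatty acids that signals through Gq and through β-arrestin 2. TGFβ signals through receptor kinases to SMAD proteins, which enter the nucleus and bind short DNA elements, often next to other factors such as AP-1. In carcinoma cells it can drive the epithelial-to-mesenchymal transition.

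The 3 genes lie on different chromosomes of GRCh37. *LRRN2* is on the minus strand of chromosome 1 from 204586298 to 204654866 and has 2 exons in its canonical transcript. *ABAT* is on the plus strand of chromosome 16 from 8768453 to 8878432, with 16 exons, and *FFAR4* on the plus strand of chromosome 10 from 95326422 to 95364237, with 3 exons. The promoters are shown because TGFβ acts on DNA through SMAD proteins, whose best-known recognition letters are CAGAC. Each sequence runs from 250 bases before a transcription start site to 50 bases from it on, 5′ to 3′ on the strand of the gene, with CAGAC on either strand in capitals (GTCTG where it lies on the other strand). They were taken from RefSeq and matched, without a mismatch, to GRCh37. For *ABAT*, RefSeq gives 4 start sites, of which that of the canonical transcript is shown.
LRRN2 promoter, chr1:204654817-204655116, minus strand: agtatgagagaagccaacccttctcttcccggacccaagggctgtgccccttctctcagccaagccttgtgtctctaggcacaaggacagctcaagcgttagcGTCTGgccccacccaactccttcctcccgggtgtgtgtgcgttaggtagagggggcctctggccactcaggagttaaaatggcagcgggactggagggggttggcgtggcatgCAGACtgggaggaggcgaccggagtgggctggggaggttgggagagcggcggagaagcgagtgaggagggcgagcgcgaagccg
ABAT promoter, chr16:8768224-8768523, plus strand: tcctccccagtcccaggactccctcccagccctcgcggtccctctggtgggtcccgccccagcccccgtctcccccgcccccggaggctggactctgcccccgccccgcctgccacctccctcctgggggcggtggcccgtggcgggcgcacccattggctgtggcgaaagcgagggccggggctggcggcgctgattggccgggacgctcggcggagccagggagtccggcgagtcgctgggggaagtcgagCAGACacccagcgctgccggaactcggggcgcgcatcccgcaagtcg
FFAR4 promoter, chr10:95326172-95326471, plus strand: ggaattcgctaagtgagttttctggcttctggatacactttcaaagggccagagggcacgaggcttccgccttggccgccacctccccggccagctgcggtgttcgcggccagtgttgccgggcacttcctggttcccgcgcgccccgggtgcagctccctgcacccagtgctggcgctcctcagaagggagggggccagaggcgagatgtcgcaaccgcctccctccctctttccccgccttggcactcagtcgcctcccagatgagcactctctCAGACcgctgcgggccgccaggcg

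CAGAC stood at 2 places in the *LRRN2* promoter, at 1 in that of *ABAT* and at 1 in that of *FFAR4*, counting both strands. Of all 35116 RefSeq promoters of the same length, 45.3% hold it at least at one place, so such a promoter is common, and it was found in the gene that was lower with TGFβ as in those that were higher. The GC-rich SMAD letters GGCGC, on either strand, were found at 0, 3 and 2 places in the promoters of *LRRN2*, *ABAT* and *FFAR4*, against 48.6% of promoters with at least 1. The AP-1 letters TGANTCA were in none of the 3 windows and in 7.71% of all promoters. At the other *ABAT* start sites, 38220, 38332 and 38963 bases from the canonical one, CAGAC stood at 0, 0 and 2 places. GGCGC stood at 0 places in each of them. Which start site the cells used was not tested. These matches describe the letters of the windows and were not tested as binding sites.

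The genes of the table took 39196214 to 46700806 reads in each library. *PHF13* had 1804 and 1662.4 normalized counts in siControl cells, 524.2 and 558.3 in siPHF13, 1586 and 1709 in siControl + TGFβ and 512.8 and 529.4 in siPHF13 + TGFβ cells, so that depletion left 31.2% without TGFβ and 31.6% with it. All 7 markers fixed for pancreatic duct carcinoma cells, such as *KRT8*, *KRT18*, *KRT19* and *VIM*, were in the table, with summed levels between 323145 and 371118 normalized counts per library. Of the markers of other cell types, *PTPRC*, *CD3E*, *PECAM1*, *VWF*, *DCN*, *LUM*, *PRSS1*, *INS* and *CHGA* were not among its genes, and the summed levels were 25.6 to 57.1 for fibroblasts (1 of 5 markers in the table, *PDGFRB*), 7.59 to 32.6 for endothelial cells (1 of 4, *KDR*) and 6.47 to 25.2 for acinar cells (1 of 4, *CEL*). The immune list (2 of 5, *CD68* and *CD14*) summed to 6161 to 7710 normalized counts in libraries with control siRNA and 10577 to 13426 in those with PHF13 siRNA. The endocrine and neural list (2 of 6, *SYP* and *SNAP25*) summed to 355.7 to 424.4 with control siRNA and 1420 to 1647 with PHF13 siRNA. *SYP* and *SNAP25* thus moved with depletion, as did *CD68*, which makes up nearly all of the immune sum, whereas *CD14* had 78.7 and 74.8 normalized counts in siControl and 41.8 and 47.3 in siPHF13 cells and was not called. Their part in the results below was not tested. In bulk RNA, fewer cells of a kind and less RNA per cell cannot be told apart.

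Differences were taken from limma, fitted over all genes and all 8 libraries on log2(normalized count + 1), so that a fold change of a low gene is understated. A gene was called changed when its adjusted p (Benjamini-Hochberg, over all 13307 genes) was under 0.05 and its absolute log2 fold change over 0.58, and SE stands for the standard error. The 3 genes were chosen on the comparison of siControl + TGFβ with siControl, which is therefore described and not tested, as is the difference between the TGFβ responses, which contains it. Both depletion comparisons share control libraries with that choice, whereas the comparison of siPHF13 + TGFβ with siPHF13 shares none. It still shares the estimate of the spread, which comes from all 8 libraries. The genes were also chosen with earlier results of these data known, so this comparison is not wholly free of the choice. In the depletion comparisons the choice favours a rise of *LRRN2* and *ABAT* without TGFβ and a fall with it. For *FFAR4* it favours the reverse. Adjusted p-values for changes in those directions may therefore be too small. The labels do not say whether the 2 libraries of a group came from separate cultures, so the p-values measure the spread between these libraries, which may be technical.

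**Figure D1:**
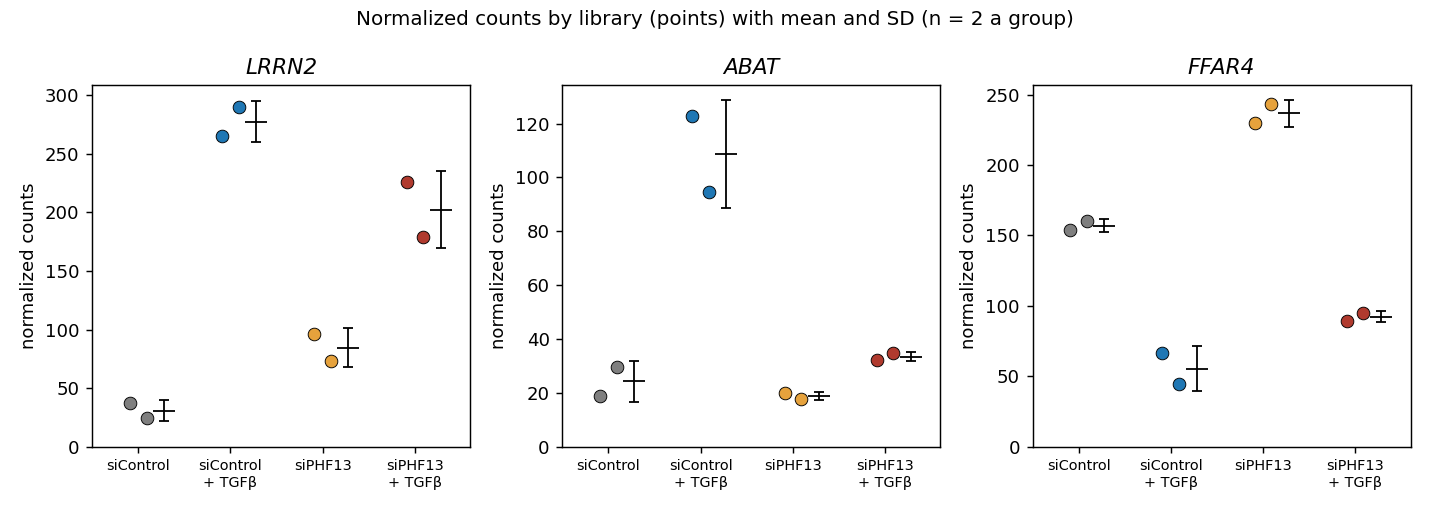
Normalized counts (vertical axes, linear from 0) of *LRRN2*, *ABAT* and *FFAR4* in the 4 groups, with 1 point per library and the mean ± SD (n = 2) beside them. *LRRN2* lies between 24.3 and 37.0 in siControl and between 265.2 and 290.1 in siControl + TGFβ libraries, *ABAT* stands above 90 only in siControl + TGFβ, and *FFAR4* is highest in siPHF13.

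*LRRN2* was low in untreated control cells and higher after TGFβ or depletion of PHF13 alone. It had 37.0 and 24.3 normalized counts in the siControl libraries, which rest on 39 and 27 reads. With TGFβ it had 265.2 and 290.1 in control cells, from 246 and 282 reads. The mean thus went from 30.7 ± 8.95 to 277.6 ± 17.6 (SD, n = 2), 9.06-fold, a fitted log2 fold change of 3.17 (SE 0.25) and the 13th highest of 13307 genes. Both libraries with TGFβ lay above both without it. In this comparison, on which the gene was chosen, 4.79% of all genes were called, 3.27% of all genes being higher, and groups did not overlap for 60.2% of all genes, with 30% higher and 30.2% lower.

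Without TGFβ, depletion of PHF13 raised *LRRN2* as well. The siPHF13 libraries had 96.5 and 73.0 normalized counts, each above both siControl libraries, in a comparison where the groups did not overlap for 77.3% of all genes. The siPHF13 libraries had a mean of 84.7 ± 16.6 (SD, n = 2) which is 2.76-fold that of siControl. The log2 fold change, in the direction that the choice favours, was 1.45 (limma, SE 0.25, adjusted p = 0.000352). Depletion was a broad change, with 7.95% of all genes called higher in the same comparison, 10.4% lower and 18.4% in either direction. The call held with each library left out in turn, with log2 fold changes between 1.16 and 1.75.

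The response of *LRRN2* to TGFβ in siPHF13 cells was smaller on both scales. The siPHF13 + TGFβ libraries had 225.6 and 179.0 normalized counts, which lie above both siPHF13 libraries and below both siControl + TGFβ libraries. Groups of siPHF13 cells with and without TGFβ did not overlap for 39.8% of all genes, with 20% higher. TGFβ raised the mean 2.39-fold in these cells, by 1.25 on the log2 scale (limma, SE 0.25, adjusted p = 0.0131), where 1.13% of all genes were called higher. The call was lost without siPHF13 replicate 2 (1.05, limma adjusted p = 0.138) and without siPHF13 + TGFβ replicate 1 (1.08, limma adjusted p = 0.0736). TGFβ added 247.0 normalized counts to the mean in control cells and 117.6 in depleted cells.

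With TGFβ, *LRRN2* was 1.37-fold lower in siPHF13 than in siControl cells. This log2 fold change of -0.46 (SE 0.25) did not pass the test (limma adjusted p = 0.144), although the groups did not overlap, which was so for 71.7% of all genes in that comparison. The order of the levels was siControl, siPHF13, siPHF13 + TGFβ and siControl + TGFβ, with no overlap between neighbours and the last neighbours not past the test. The response in siPHF13 cells minus that in siControl cells was -1.92 on the log2 scale (SE 0.36), and 0.308% of all genes were called for this difference, 0.0601% higher and 0.248% lower. If both single effects had added on the log2 scale, the level with both would have been 761.1 normalized counts, 3.79 times the 201.0 measured as a geometric mean.

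*ABAT* followed another course, with its highest level in TGFβ-treated control cells and low levels elsewhere. It had 19.0 and 29.7 normalized counts in siControl libraries, from 20 and 33 reads, and 122.9 and 94.6 in siControl + TGFβ libraries, from 114 and 92 reads. Both libraries with TGFβ lay above both without, which was so for 30% of all genes. The mean went from 24.4 ± 7.61 to 108.8 ± 19.99 (SD, n = 2), 4.47-fold, with a fitted log2 fold change of 2.14 (SE 0.37), the 45th highest of all genes. This is the comparison on which the gene was chosen.

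In depleted cells the enzyme's mRNA stayed low. The siPHF13 libraries had 19.9 and 17.8 normalized counts, which overlap the siControl libraries, and no change was detectable at this depth (-0.32 on the log2 scale, limma, SE 0.37, adjusted p = 0.5). With TGFβ they had 32.4 and 34.6, from 30 and 36 reads, above both libraries without TGFβ. This step of 0.80 on the log2 scale (SE 0.37) did not pass the test (limma adjusted p = 0.357), in a comparison where 39.8% of all genes had groups without overlap.

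*ABAT* fell in TGFβ-treated cells after depletion of PHF13, to 30.8% of its level in siControl + TGFβ. The log2 fold change, in the direction that the choice favours, was -1.66 (limma, SE 0.37, adjusted p = 0.00206). This was the 170th lowest of 13307, and 11.7% of all genes were called lower there. It was called with each library left out in turn, between -1.84 and -1.47. TGFβ added 84.4 normalized counts to the mean in control cells and 14.7 in depleted cells, and the response in siPHF13 minus that in siControl cells was -1.33 on the log2 scale (SE 0.52). In order of level, siPHF13 and siControl did not differ beyond their spread, siPHF13 + TGFβ stood next, and siControl + TGFβ was apart from the rest.

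**Figure D2:**
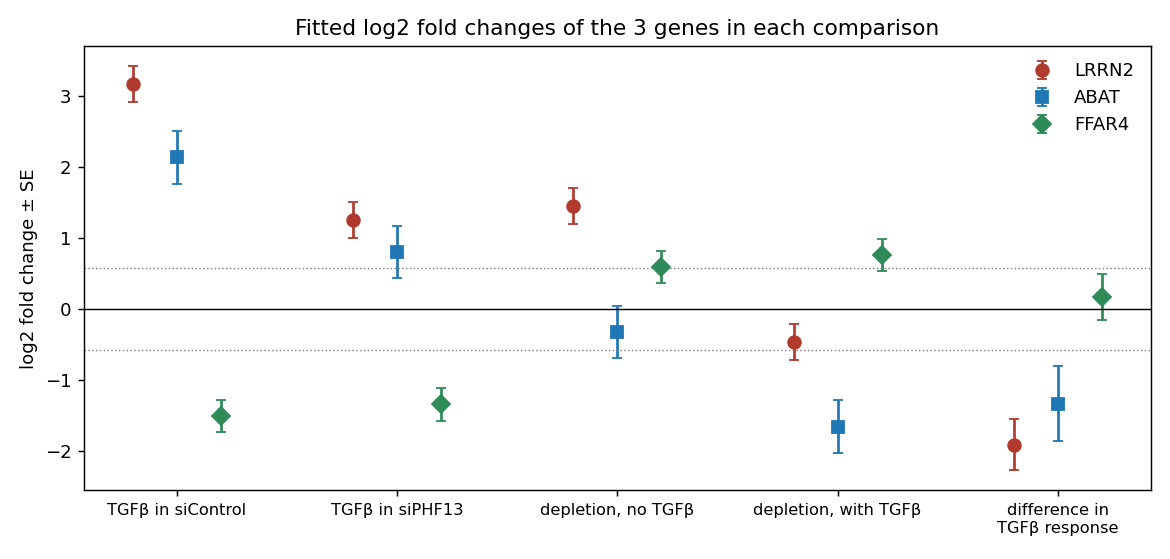
Fitted log2 fold changes (vertical axis, ± 1 SE) of *LRRN2* (circles), *ABAT* (squares) and *FFAR4* (diamonds) in each of the 4 comparisons, and the difference between the TGFβ responses, siPHF13 minus siControl (horizontal axis). Dotted lines mark ± 0.58, and the differences of *LRRN2* and *ABAT* lie at -1.92 and -1.33 while that of *FFAR4* is 0.16.

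*FFAR4* was lower with TGFβ, and it fell with TGFβ in depleted cells as well. It had 153.7 and 160.4 normalized counts in siControl libraries and 66.8 and 44.2 in siControl + TGFβ libraries, so that TGFβ left 35.4% of the mean. The groups did not overlap, which was so for 60.2% of all genes, 30.2% being lower. The fitted log2 fold change was -1.51 (SE 0.23), the 49th lowest of all genes, in the comparison on which the gene was chosen and where 1.52% of all genes were called lower. In siPHF13 cells it had 229.8 and 243.7 normalized counts without TGFβ and 89.6 and 95.3 with it, so that 39.1% was left. That fall of 1.35 on the log2 scale (SE 0.23) passed the test (limma adjusted p = 0.0035), in a comparison where 0.218% of all genes were called lower, 1.35% were called in either direction and groups lay apart and lower for 19.8%. Without siPHF13 replicate 2 the change was -1.30 and missed the threshold (limma adjusted p = 0.0505).

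Depletion raised *FFAR4* both without and with TGFβ, close to the thresholds. Without TGFβ the mean went from 157.0 ± 4.76 to 236.7 ± 9.82 normalized counts (SD, n = 2), a log2 fold change of 0.59 (limma, SE 0.23, adjusted p = 0.0466). This call was lost without any 1 of the 4 libraries compared (limma adjusted p between 0.114 and 0.171), with a block for the replicate number (limma adjusted p = 0.0555) and with a pseudocount of 5 (0.577, under the fold threshold). With TGFβ the mean went from 55.5 ± 16.0 to 92.4 ± 4.02 (SD, n = 2), in the direction that the choice favours. The log2 fold change was 0.75 (limma, SE 0.23, adjusted p = 0.0134). It was lost without siControl + TGFβ replicate 2 (0.46, limma adjusted p = 0.129) or siPHF13 + TGFβ replicate 2 (0.71, limma adjusted p = 0.0525), and in a fit of the 4 libraries compared alone (limma adjusted p = 0.0604). Of all genes, 8.81% were called higher by depletion with TGFβ.

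The difference between the TGFβ responses of *FFAR4* was 0.16 on the log2 scale (SE 0.32), and its direction turned without siControl + TGFβ replicate 2 (-0.13). Thus depleted cells showed 89.1% of the control response on the log2 scale for *FFAR4*, against 39.5% for *LRRN2* and 37.5% for *ABAT*. In normalized counts the change of the *FFAR4* mean with TGFβ was -101.5 in control cells and -144.3 in depleted cells, so on this scale it was the larger in depleted cells. Among the 435 genes called higher with TGFβ in siControl cells the median of this share was 54.9% (quartiles 39.5% and 71.1%), and among the 202 called lower it was 34.4% (quartiles 16.4% and 53.3%). All of these genes were chosen on the control response, so these shares are descriptions. The levels of *FFAR4* were ordered siControl + TGFβ, siPHF13 + TGFβ, siControl and siPHF13, with no overlap between neighbours. With depletion, groups did not overlap for 77.3% of all genes without TGFβ and for 71.7% with it.

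The *FFAR4* gene overlaps *RBP4*, which encodes the retinol carrier of plasma and lies on the other strand, and the 2 genes share 0 bases of annotated exons. The sources used here do not give the strand setting of the counting. *RBP4* had 95.8 and 93.7 normalized counts in siControl, 35.6 and 41.1 in siControl + TGFβ, 177.0 and 167.7 in siPHF13 and 118.7 and 114.5 in siPHF13 + TGFβ libraries. It was therefore lowest with TGFβ alone and highest with depletion alone, as was *FFAR4*. *RBP4* fell with TGFβ in siControl cells (log2 fold change -1.29, limma adjusted p = 0.00127). It rose with depletion both without TGFβ (0.86, adjusted p = 0.00602) and with it (1.58, adjusted p = 5.14e-05, limma). Its change with TGFβ in siPHF13 cells was -0.56 and did not pass the test (limma adjusted p = 0.254).

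**Figure D3:**
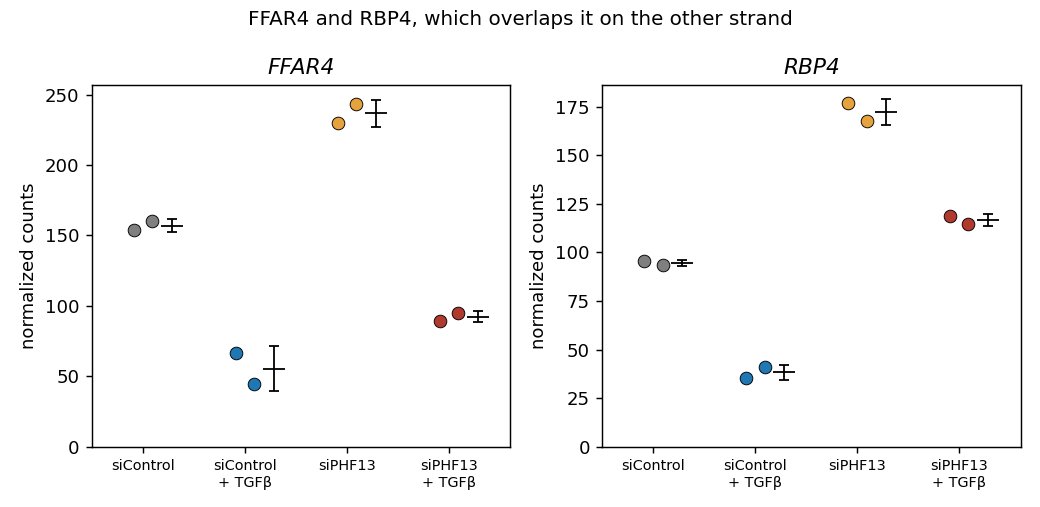
Normalized counts (vertical axes, linear from 0) of *FFAR4* and *RBP4* in the 4 groups, with 1 point per library and the mean ± SD (n = 2). Both genes are lowest in siControl + TGFβ, at 66.8 and 44.2 for *FFAR4* and at 35.6 and 41.1 for *RBP4*, and highest in siPHF13.

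*ABAT* overlaps *TMEM186* on the other strand, with 152 shared exon bases (1.56% of the exon bases of *ABAT*). *TMEM186*, which encodes a mitochondrial membrane protein, had between 224.2 and 305.8 normalized counts in the 8 libraries and was not called in any comparison (log2 fold changes -0.12 with TGFβ in siControl cells and 0.29 with depletion in TGFβ-treated cells). Transcripts that overlap *LRRN2* were not in the table.

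The nearest 3 protein-coding genes of the table on each side of each gene were taken as neighbours, whatever their distance. Beside *ABAT*, *ALG1* and *NAGPA* lie as far as 3630 and 3680 kb away. Of the 18 neighbours, 2 were called with TGFβ in siControl cells against 4.79% of all genes. In siPHF13 cells 0 were called with TGFβ by limma, against 1.35% of all genes. With depletion, 4 were called without TGFβ and 5 with it, near the 18.4% and 20.5% of all genes. Beside *LRRN2*, *NFASC*, a neuronal adhesion molecule 143 kb away, rose by 0.72 on the log2 scale with TGFβ in siControl cells (limma adjusted p = 0.00296). It was the neighbour that moved as *LRRN2* did there, while *MDM4* (-0.07) and *PIK3C2B* (0.03), which are nearer, did not pass the test. Depletion without TGFβ gave changes of 1.17 for *TMEM81* (limma adjusted p = 0.000841) and -1.15 for *PPP1R15B* (limma adjusted p = 6.45e-09), both also beside *LRRN2*. Beside *FFAR4*, *CEP55*, a midbody protein needed for the last step of cell division, fell by 0.60 with TGFβ in siControl cells (limma adjusted p = 3.6e-05). Without siControl + TGFβ replicate 2 its change was -0.53, under the fold threshold. *PMM2*, which starts 4.25 kb after *ABAT* ends, had a change of 0.03 with TGFβ in siControl cells and of -0.40 with depletion in TGFβ-treated cells.

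Of 38 genes fixed as relatives of *LRRN2* in build, leucine-rich repeat adhesion receptors, 19 were in the table. With TGFβ in siControl cells 3 of them rose and 2 fell past both thresholds, and the median of the list was 0.09 on the log2 scale, against -0.01 over all genes. Of all genes 4.79% were called there, 3.27% higher and 1.52% lower. Without siControl replicate 2 the number called was 3 in place of 5. *AMIGO2*, an adhesion molecule, rose from 3281 and 3012 to 8000.5 and 8928 normalized counts (1.43, limma adjusted p = 2.42e-07). It was also the 1 relative called with TGFβ in siPHF13 cells, at 0.78 on the log2 scale (limma adjusted p = 0.000232), where 1.35% of all genes were called. Without siPHF13 + TGFβ replicate 2 the number called there was 2. The medians of the list were 0.21 in that comparison and 0.16 and 0.00 with depletion without and with TGFβ. *SLITRK6* (1.22) and *FLRT2* (1.12), the latter a ligand of UNC5 receptors and latrophilins, also rose in siControl cells. In siPHF13 cells their changes of 0.46 and 0.61 did not pass the test (limma adjusted p = 0.373 and 0.0568).

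*LINGO1* and *SLITRK2*, which take part in synapse and axon biology, fell with TGFβ in siControl cells (-1.81 and -1.04 on the log2 scale). *LINGO1* had only 16.2 and 19.5 normalized counts with TGFβ, and its call was lost without any 1 of the 4 libraries compared without either siPHF13 library and with the replicate block (limma adjusted p = 0.0517 with the block, and -1.501 without siControl replicate 2, limma adjusted p = 0.277). The call of *SLITRK2* was lost without siControl replicate 2 (-0.84) or siControl + TGFβ replicate 2 (-0.83). With depletion 0 relatives rose and 3 fell without TGFβ, and 1 rose and 2 fell with it. These 3 of 19 in each stand against 18.4% and 20.5% of all genes, and are no more than the background. Without siControl + TGFβ replicate 1 the number called with TGFβ was 6 in place of 3. *LRFN5*, a synaptic adhesion molecule, fell in both (-1.06 and -1.03), with 335.8 and 385.6 normalized counts in siControl and 191.0 and 155.9 in siPHF13 cells. *SLITRK2* fell with depletion without TGFβ, from 150.8 and 199.1 to 52.7 and 67.1 normalized counts (-1.53, limma adjusted p = 0.0003). Its changes with depletion in TGFβ-treated cells (-0.34) and with TGFβ in siPHF13 cells (0.14) did not pass the test. The relative that rose was *LRRN3*, the other LRRN gene in the table (0.60 with TGFβ, limma adjusted p = 0.00196), which was named after its values were seen. This call was lost without siControl + TGFβ replicate 2 (0.48) or siPHF13 + TGFβ replicate 1 (0.52), where the change lay under the fold threshold. Its change with TGFβ in siControl cells was -0.54.

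Of 20 genes that make or break down GABA or act beside ABAT in β-alanine and valine breakdown, 16 were in the table. With TGFβ 0 of them were called by limma in siControl cells, against 4.79% of all genes, with 3 at an unadjusted p under 0.05. In siPHF13 cells 0 were called, against 1.35% of all genes, with 0 at that unadjusted level. For a list of 16 genes such counts are near the background. No gene of this list thus stood beside *ABAT* past both thresholds, except that 1 did without siControl + TGFβ replicate 1 or either siPHF13 + TGFβ library. The medians were -0.07 and -0.01 with TGFβ in siControl and siPHF13 cells, and 0.16 and 0.10 with depletion without and with TGFβ, against values between -0.01 and 0.00 over all genes. With depletion 3 rose and 2 fell without TGFβ, and 3 rose and 1 fell with TGFβ, against 18.4% and 20.5% of all genes called. Without siControl replicate 1 or siPHF13 replicate 2 the number called without TGFβ was 3 in place of 5.

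*GAD1*, the enzyme that makes GABA from glutamate, fell in both depletion comparisons. It had 688.6 and 659.5 normalized counts in siControl and 296.4 and 300.9 in siPHF13 cells, and 779.5 and 884.6 against 326.0 and 364.8 with TGFβ (log2 fold changes -1.17 and -1.27, limma adjusted p = 2.98e-06 and 1.33e-06). *ALDH5A1*, which acts directly after ABAT, fell without TGFβ from 87.3 and 83.8 to 22.9 and 15.8 normalized counts (-2.11, limma adjusted p = 0.000861). With TGFβ its change of -0.89 did not pass the test (limma adjusted p = 0.0883).
*ADHFE1* (0.88 and 1.25) and *AKR7A2* (0.60 and 0.66), which handle the related hydroxybutyrate and succinic semialdehyde, rose in both depletion comparisons. The calls without TGFβ were lost without siControl replicate 1 or siPHF13 replicate 2 for *ADHFE1* (0.62 each), and without siControl replicate 2 (0.48) or siPHF13 replicate 1 (0.54) for *AKR7A2*. *GLS2*, a glutaminase, rose with depletion in TGFβ-treated cells (1.11, limma adjusted p = 0.00292), and *DPYD*, which starts pyrimidine breakdown, in untreated cells (0.61, limma adjusted p = 0.00918). The call of *DPYD* was lost without siControl replicate 1 (0.53) or siPHF13 replicate 2 (0.46).

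Of 26 receptor subunits and transporters for GABA, 6 were in the table. *GABBR1*, a subunit of the metabotropic GABA receptor, fell with depletion, from 666.8 and 664.0 to 333.2 and 338.4 normalized counts without TGFβ and from 894.8 and 806.4 to 461.0 and 394.6 with it (-0.98 and -0.99 on the log2 scale, limma adjusted p = 1.31e-05 and 1.04e-05). With TGFβ 0 of the 6 were called by limma in siControl cells, with 1 at an unadjusted p under 0.05, and the same counts were found in siPHF13 cells. Of all genes 4.79% and 1.35% were called in these comparisons, so that 0 of 6 is near the background. Without siControl + TGFβ replicate 1 the number in siControl cells was 1. With depletion 1 of the 6 was called both without and with TGFβ, near the 18.4% and 20.5% of all genes. Without TGFβ the number was 2 when either siControl + TGFβ library was left out, with a pseudocount of 5, in a fit of the libraries compared alone and with the replicate block. With TGFβ it was 2 with the replicate block and without siControl + TGFβ replicate 1 or siPHF13 + TGFβ replicate 1, and 3 without siPHF13 + TGFβ replicate 2. The medians of the list were -0.16 and -0.21 with TGFβ in siControl and siPHF13 cells, and -0.19 and -0.46 with depletion without and with TGFβ.

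**Figure D4:**
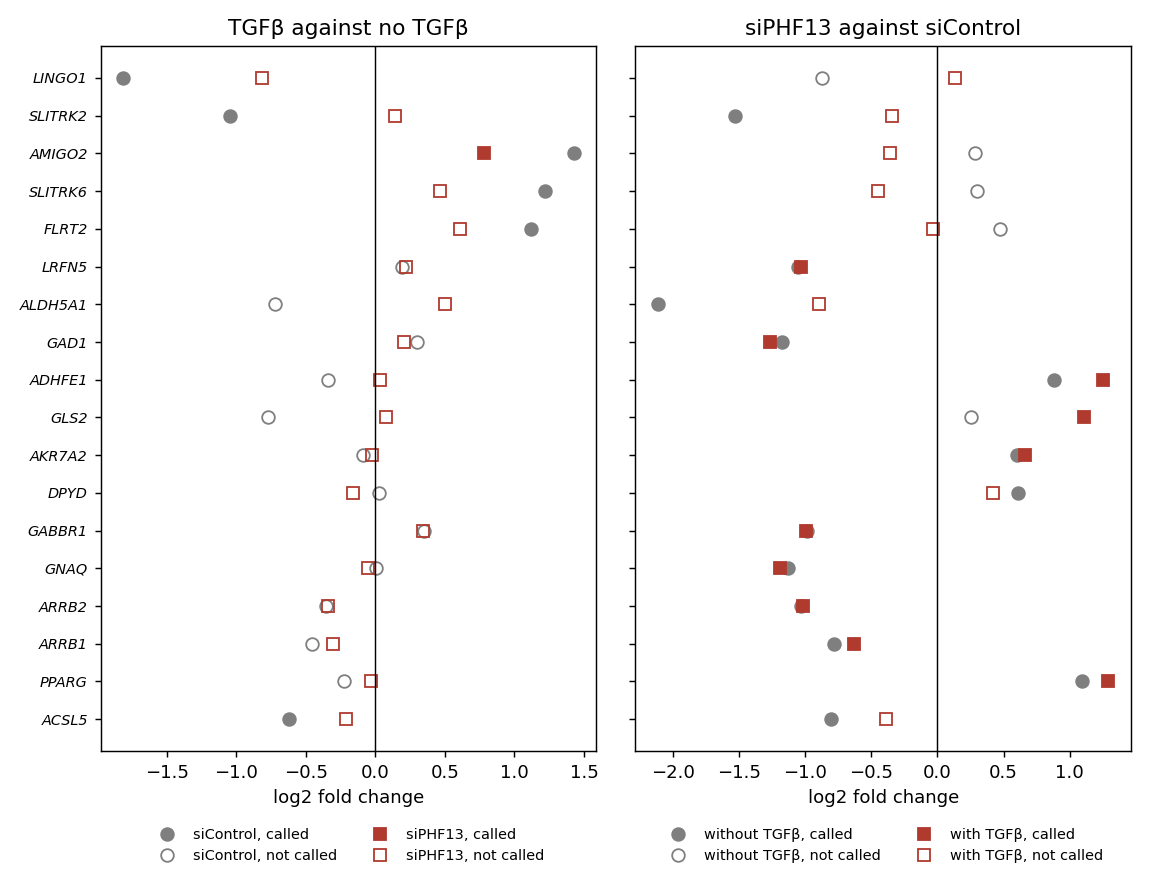
Log2 fold changes (horizontal axes) of the called genes of the 5 lists, at most 6 a list, with TGFβ (left, circles siControl and squares siPHF13 cells) and with depletion (right, circles without and squares with TGFβ). Filled symbols passed both thresholds, as *GNAQ* did at -1.13 and -1.19 and *PPARG* at 1.09 and 1.29 with depletion.

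Of 21 genes for fatty acid receptors and the effectors they use, 13 were in the table, and *FFAR1*, *FFAR2* and *FFAR3* were not among them. With TGFβ 0 were called by limma in siControl cells and 0 in siPHF13 cells, against 4.79% and 1.35% of all genes. For 13 genes such counts are near the background. In each comparison 3 had an unadjusted p under 0.05, and the medians were -0.02 and -0.03. With depletion 0 rose and 3 fell, both without and with TGFβ, with medians of -0.20 and -0.06. Over all genes 18.4% and 20.5% were called there, 10.4% and 11.7% being lower, so that 3 of 13 is near the background. *GNAQ*, the α subunit of Gq, had 2064 and 1952 normalized counts in siControl and 934.0 and 902.6 in siPHF13 cells (log2 fold changes -1.13 without and -1.19 with TGFβ, limma adjusted p = 1.2e-07 and 6.41e-08). *ARRB2*, which encodes β-arrestin 2, fell in both (-1.03 and -1.02), as did *ARRB1* (-0.78 and -0.63). Without siPHF13 + TGFβ replicate 2 the change of *ARRB1* with TGFβ was -0.57, under the fold threshold. *GNA11*, the α subunit of the related G11, was named after its values were seen, and its changes of 0.34 and 0.38 lay under the fold threshold (limma adjusted p = 0.00329 and 0.00122).

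Of 22 genes for uptake, binding and sensing of fatty acids in the cell, 13 were in the table. *PPARG*, a nuclear receptor for fatty acids, rose with depletion from 2770 and 3051 to 6045 and 6369 normalized counts without TGFβ (1.09) and from 2463 and 2497 to 5761 and 6411 with it (1.29, limma adjusted p = 1.52e-08). *ACSL5*, which couples long-chain fatty acids to coenzyme A, fell by 0.62 with TGFβ in siControl cells and by 0.80 with depletion without TGFβ. The former call was lost without either siControl library or siControl + TGFβ replicate 1 (limma adjusted p between 0.0523 and 0.0777). No other gene of the list was called by limma with all libraries in these 4 comparisons, in which the medians were 0.11, 0.10, 0.01 and 0.11. Of the 13, 1 was thus called with TGFβ in siControl and 0 in siPHF13 cells, against 4.79% and 1.35% of all genes. With depletion 2 were called without and 1 with TGFβ, against 18.4% and 20.5% of all genes. Without siControl + TGFβ replicate 2 or siPHF13 + TGFβ replicate 2, depletion with TGFβ gave 2 called genes in place of 1.

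Genes whose log2 values were most like those of each member over the 8 libraries were picked by Pearson correlation among the 11201 genes averaging 100 normalized counts or more, the gene itself aside. This likeness describes 4 group means more than 8 independent points. For *LRRN2* they were *TTLL1* (r = 0.99), *PACSIN3* (0.98), *EPHB2* (0.98), *FLRT2* (0.98) and *UBASH3B* (0.98). *EPHB2*, a receptor for ephrin-B ligands, had 4496 and 4098 normalized counts in siControl, 6752 and 7361 in siPHF13, 12960 and 12685 in siControl + TGFβ and 12908 and 11567 in siPHF13 + TGFβ cells, the same order of means as *LRRN2*. For *ABAT* they were *SEPT10* (0.99), *ARRDC3* (0.99), *CHPF2* (0.98), *UBE2F* (0.98) and *ST6GALNAC4* (0.98). *ARRDC3*, an arrestin-domain protein, had 9711 and 8840 normalized counts in siControl + TGFβ and between 5993 and 6874 in the other 6 libraries. For *FFAR4* they were *PIM3* (0.99), *IDH3B* (0.98), *RIMKLA* (0.96), *MBP* (0.96) and *RASL11A* (0.96). *RASL11A*, a small GTPase-like protein, had 860.3 and 775.8 normalized counts in siControl, 328.8 and 326.1 in siControl + TGFβ, 1060 and 1099 in siPHF13 and 599.1 and 639.1 in siPHF13 + TGFβ cells. With a library left out, between 2 and 4 of the 5 genes stayed among the first 5 for *LRRN2* and for *ABAT*, and between 1 and 4 for *FFAR4*.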

How the data were processed

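mRNA of Panc-1 cells was measured in 8 libraries. The authors trimmed the reads with Trim Galore 0.4.1, mapped them with STAR 2.7.0 to the human reference transcriptome (hg19), counted them on exons with HTSeq 0.12.4 and divided the counts by a DESeq2 size factor. The deposited signal is this normalized count. The fold changes and p-values of the authors' own comparisons were not used. Their means for the control group equal those of the columns read here as siControl.

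Groups were taken from the sample titles. The count columns carry abbreviations, which were matched to these titles, with NT read as non-targeting siRNA without TGFβ. Fits used limma 3.58.1 in R 4.3.3 with a trended prior variance and a pseudocount of 1. A minimum of 10 normalized counts in 2 libraries removed 0 genes. In each library all values were whole multiples of one step (tolerance 0.001 reads), which gave read numbers. A check of units did not accept the reads of siPHF13 replicate 1 (step 0.995). Therefore edgeR 4.0.16 and DESeq2 1.42.0 were run on the 6 libraries of the other groups only. Promoters and the positions of genes (GENCODE, GRCh37) came from reference files.

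The members and the lists were chosen with earlier results of these data known. Named genes are the members, *PHF13*, the 5 genes most alike, 3 neighbours on each side and at most 6 called genes a list. The limma fit (for TGFβ in siPHF13 cells), the edgeR fit, the recovery of reads and the search for like genes were tested on simulated data. As alternatives served a pseudocount of 5, no minimum, TMM rescaling, a fit of the libraries compared, a replicate block, edgeR and DESeq2 on recovered reads, and each library left out.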

Additional observations from a re-analysis of the deposited data

Results flagged for a closer look

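*LRRN2* moved in opposite directions with depletion of PHF13 in the 2 settings. Without TGFβ both siPHF13 libraries lay above both siControl libraries (log2 fold change 1.45), and with TGFβ both siPHF13 libraries lay below both siControl libraries (-0.46). Groups did not overlap for 77.3% of all genes without TGFβ (38.5% higher) and for 71.7% with it (36.1% lower). Both directions are those that the choice of the gene favours. The difference between the 2 settings was not tested, since it contains the comparison on which the gene was chosen. The second change did not pass the test of its own. The search for single outlying libraries was not possible with 2 libraries a group.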

How the results depend on the processing

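The depletion calls of *LRRN2* without TGFβ, of *ABAT* with TGFβ and of *PHF13* in both held under every alternative run. With a pseudocount of 5, *FFAR4* with depletion without TGFβ was 0.577, under the fold threshold of 0.58, and with the replicate block it was 0.589 (adjusted p = 0.0555 from limma). Over its alternatives the adjusted p ran from 0.00822 to 0.171. With only the libraries compared, *FFAR4* with depletion in TGFβ-treated cells was 0.75 (adjusted p = 0.0604 from limma, with a range of 0.0041 to 0.129). The cause was not tested. The replicate block changed no other call of the 3 genes, and gave 630, 171, 2438 and 2711 called genes with TGFβ in siControl and siPHF13 cells and with depletion without and with TGFβ, against 637, 179, 2448 and 2726. The replicate numbers mark no stated batch, and deviations of same-numbered libraries from their group means correlated between -0.25 and 0.27 over 11201 genes in the 6 pairs of groups.

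With 1 library left out, the log2 fold change with TGFβ in siControl cells lay between 2.87 and 3.46 for *LRRN2*, 1.82 and 2.45 for *ABAT* and -1.80 and -1.22 for *FFAR4*. In siPHF13 cells it lay between 1.05 and 1.45 for *LRRN2* (adjusted p over all alternatives 0.00848 to 0.138, limma) and -1.39 and -1.30 for *FFAR4* (0.00192 to 0.0505). For *FFAR4* depletion gave 0.55 to 0.63 without TGFβ and 0.46 to 1.05 with it. The difference in TGFβ response lay between -2.21 and -1.62 for *LRRN2*, -1.65 and -1.02 for *ABAT* and -0.13 and 0.46 for *FFAR4*.

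Over the 5 lists, 6 genes were called with TGFβ in siControl cells (3 to 8 with 1 library left out), 1 in siPHF13 cells (1 to 2), 14 with depletion without TGFβ and 12 with TGFβ. Without the fold threshold these were 14, 1, 32 and 26. The lists had 19, 16, 6, 13 and 13 genes in the table. Of all genes, 4.79%, 1.35%, 18.4% and 20.5% passed both thresholds in these 4 comparisons. Of the called values of other single genes under the alternatives, 609 kept their call and 28 lost it, and 0 changed direction. *ABAT* rests on 18 to 33 reads in the libraries without TGFβ for which reads are given, and its changes have a standard error of 0.37 on the log2 scale.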
